A study of Homo sapiens with 6 samples.

Results

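The cytosolic ribosomal proteins were taken as every row of the count table whose symbol is RPL or RPS followed by a number, with an optional A, L, X or 1 at the end, together with RPLP0, RPLP1, RPLP2 and RPSA. This rule gave 85 of the 30017 genes in the table, 53 of the large and 32 of the small ribosomal subunit. RNA was sequenced from BLaER1 cells, a human B cell leukaemia line that turns into induced macrophages (iMacs) when the transcription factor CEBPA is activated with 17β-estradiol in the presence of IL-3 and CSF-1. The cells were a single subclone, labelled BLaER subclone CTCF-AID, in which the chromatin factor CTCF is fused to a degron that the auxin IAA activates to destroy the protein. All 3 groups carried the degron and had 2 libraries each, namely cells at 0 h with no transdifferentiation factors, cells after 96 h with the factors and no IAA (96 h control), and cells after 96 h with the factors and with IAA from the start (96 h CTCF-depleted). No IAA-treated group without the degron was analysed here, so IAA and loss of CTCF cannot be told apart.

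Each library held between 9273470 and 12718780 counts. The degron removes protein, so the CTCF transcript is no check of the labels; its level was 231 and 214 CPM (counts scaled to a common library total, with TMM factors) at 0 h, 181 and 174 in the 96 h control and 191 and 189 after depletion. The cell states were checked with markers. All 10 B cell markers, such as CD79A and PAX5, fell and all 10 macrophage markers, such as CD14 and CSF1R, rose from 0 h to the 96 h control. Their summed shares of all counts were 0.389% and 0.390% (B cell) against 0.0119% and 0.0106% (macrophage) at 0 h. In the 96 h libraries with and without IAA the B cell markers took 0.0747% to 0.0781% and the macrophage markers 0.590% to 0.656%. The T cell markers summed to 0 counts at 0 h and to 38 to 55 at 96 h, all but 1 of them from CD2, and CD3D and CD3G were at 0 throughout. Erythroid markers summed to at most 1 count and the fibroblast or epithelial markers to 35 to 154 counts, mostly COL1A1.

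Ribosomal proteins and ribosomal RNA make up the ribosome, with the P stalk of RPLP0, RPLP1 and RPLP2 receiving the translation factors. Their mRNAs are among the most abundant of growing cells and most begin with a 5′ terminal oligopyrimidine (TOP) tract, a C at the first base followed by a run of C and T, through which mTORC1 and the RNA-binding protein LARP1 control their translation and stability. Several ribosomal proteins have a paralog, a related gene whose product can take the place of the common form or has a role of its own. In B cell leukaemia and in macrophages, as elsewhere, demand for ribosomes follows growth.

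The first bases of the mRNAs were read from RefSeq promoter sequences (GRCh38.p14), which held 68 of the 85 members. For 62 members the start of the MANE Select transcript in GENCODE 44 lay within the window. A C start followed by at least 4 pyrimidines was found in 45 of these 62 members (72.6%), against 601 of 12813 genes (4.69%) over all genes treated in the same way. The sequences below are of members named in the comparisons that follow and are no ranking by size or certainty of change. Several of their calls were lost under other settings, as given below. RPL26L1 and RPL39L, which are also named there, had no start within the window. Each sequence has 15 bases before the annotated start and 15 from it on, so that the start is base 16. Capitals mark the pyrimidine run that includes the start. The first set fell or was lower from 0 h to the 96 h control.
RPS26, chr12:56041903-56041932, plus strand: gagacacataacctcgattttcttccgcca
RPL7L1, chr6:42879601-42879630, plus strand: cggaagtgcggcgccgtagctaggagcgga
RPSA, chr3:39406705-39406734, plus strand: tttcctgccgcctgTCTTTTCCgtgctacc
RPL17, chr18:49492451-49492480, minus strand: cctctttccctaagcagcctgaggtgagtg
RPLP0, chr12:120201097-120201126, minus strand: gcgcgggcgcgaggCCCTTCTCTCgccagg
The next set was higher in the 96 h control than at 0 h.
RPS27L, chr15:63157463-63157492, minus strand: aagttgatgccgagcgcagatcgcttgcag
RPS18, chr6:33272060-33272089, plus strand: cgcgtcacttccgCTCTCTCTTCCacagga
RPLP2, chr11:809952-809981, plus strand: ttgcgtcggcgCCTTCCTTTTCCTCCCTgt
RPS24, chr10:78033848-78033877, plus strand: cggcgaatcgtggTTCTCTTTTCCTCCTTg
The last set was lower after CTCF depletion.
RPL36, chr19:5690280-5690309, plus strand: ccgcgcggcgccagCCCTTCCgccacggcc
RPL22L1, chr3:170870181-170870210, minus strand: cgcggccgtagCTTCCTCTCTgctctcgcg
RPS21, chr20:62387088-62387117, plus strand: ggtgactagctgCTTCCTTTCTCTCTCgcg
RPS25, chr11:119018329-119018358, minus strand: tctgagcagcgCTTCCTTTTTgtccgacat

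RPS26, RPL7L1, RPL17 and RPS27L had no pyrimidine run at their annotated start, while RPSA and RPLP0 had the same kind of start as RPS18, RPLP2 and RPS24, which moved the other way. The annotated start need not be the start used in these cells, which these data do not give. The 45 members with a TOP start had a median log2 fold change of −0.13 between 0 h and the 96 h control, and the 16 tested members with another start had −0.21. Of the 45, 1 fell past both thresholds given below, and of the 16, 3 fell, where 22.9% of all genes tested fell. In the 300-base promoters, searched on both strands, the ETS motif CCGGAAG was found in 23 of 68 members (33.8%), against 10.7% of all 27305 promoters of that length. The YY1 motif GCCATCTT was found in 7 (10.3%, against 3.03%), the SP1 motif GGGGCGGGG in 6 (8.82%, against 16.0%) and the E-box CACGTG in 4 (5.88%, against 7.43%).

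The members took a smaller share of all counts after transdifferentiation. Their share was 5.31% and 5.00% at 0 h, 4.36% and 4.18% in the 96 h control and 4.34% and 4.26% in the 96 h CTCF-depleted libraries, with 95% Wilson intervals of at most 0.0144 percentage points to either side, which cover counting error only. Both libraries at 0 h were above all 4 libraries at 96 h, and the values with and without IAA overlapped. With 2 libraries a group the smallest p that a permutation allows is 0.333, so no test was made. The libraries hold total RNA, and 4 abundant RNAs that are not translated, RN7SK, MALAT1, RPPH1 and RN7SL1, together took 4.40% and 4.50% of counts at 0 h, 5.92% and 6.21% in the 96 h control and 6.76% and 6.77% after depletion. Over protein-coding rows alone, the members took 6.11% and 5.76% at 0 h, 5.06% and 4.87% in the control and 5.07% and 4.98% after depletion, so both 0 h libraries again lay above all 4 libraries at 96 h. All values are relative to the sequenced RNA, and fewer cells with a high level and less RNA per cell cannot be told apart in bulk samples.

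**Figure D1:**
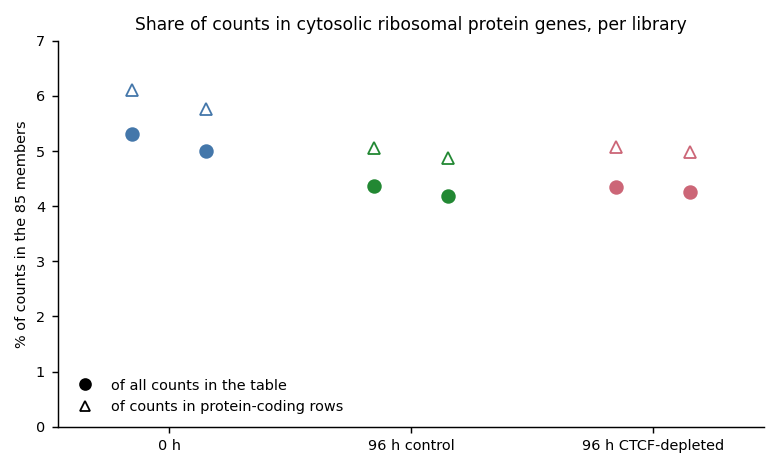
Share of counts in the 85 cytosolic ribosomal protein genes in each of the 6 libraries (vertical axis, percent); circles are shares of all counts and open triangles shares of counts in protein-coding rows. The 0 h libraries lie at 5.31% and 5.00% of all counts and the 4 libraries at 96 h between 4.18% and 4.36%.

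Of the 85 members, 83 passed the filter on low counts among 14758 genes tested. The other two, RPL3L and RPL10L, which are known from striated muscle and testis, had 0 counts in all 6 libraries. The mean level of the 83 ran from 5.73 to 1570 CPM, with a median of 505, and 73 were above 100 CPM. Per kilobase of coding sequence, RPL41, RPL37A, RPL23 and RPS27 were among the highest, at 2320, 2230, 2040 and 1950 CPM per kilobase over all libraries. RPL41 encodes the shortest protein of the ribosome, and its value rests on 75 coding bases. The lowest of the tested members by the same measure were RPL26L1 (23.3 CPM per kilobase), RPL39L (37.4), RPL36A (55.9), RPL17 (75.4) and RPL22L1 (91.9). RPL36A and RPL17 are core ribosomal proteins, whereas the others are paralogs. Both core genes overlap a row of read-through transcripts on the same strand, and its effect on their levels was not tested. Per kilobase of merged exons, which count every annotated exon, the order changed at the top, with RPS12 (815), RPS2 (657), RPS6 (525) and RPL7A (486) among the highest. At the bottom were then RPL39L (5.55), RPS27L (5.80), RPL36A (6.01), RPL26L1 (8.72) and RPS29 (12.8). The genes lie on 21 chromosomes, with 12 on chromosome 19 and 9 on chromosome 3.

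Transdifferentiation was compared first, as the 96 h control against 0 h. The mRNAs of most members were slightly lower in iMacs, and a few fell strongly, led by RPS26, RPL7L1, RPSA, RPL39L and RPL17. No member rose past both thresholds, namely adjusted p below 0.01 and a log2 fold change beyond 0.6 in either direction. The 5 that fell are 6.02% of the 83 tested, against 22.9% of all genes tested; for rises the counts are 0 members and 25.4% of all genes. The count of rises past the fold threshold was also 0 with DESeq2, and 0 with edgeR at an unadjusted p below 0.05. By adjusted p alone 47 members were lower (56.6%, against 33.7% of all genes) and 5 were higher (6.02%, against 34.5%). The median log2 fold change of the members was −0.16, or 89.5% of the 0 h level, with 65 members below 0 and 18 above, where that of all genes was 0.02. It was −0.18 for the 51 tested members of the large subunit and −0.15 for the 32 of the small subunit. The members ranged from −1.07 to 0.42 with an SD of 0.24, against an SD of 2.13 over all genes. The genes compared were not matched to the members in level.

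The small shifts have to be read beside the spread between replicates. At 0 h, 78 of the 83 members were higher in replicate 1 than in replicate 2, by a median of 0.09 on the log2 scale, and in the 96 h control and CTCF-depleted groups 69 and 70 were higher in replicate 1, by 0.05 each. Without 0 h replicate 2 the median of the members was −0.26. Without 96 h control replicate 2, the count lower by adjusted p alone dropped to 28. The number higher by adjusted p alone was 8 without 0 h replicate 1, 1 without 0 h replicate 2 and 1 without 96 h control replicate 1. The number past both thresholds was 4 to 7 when any of the 4 libraries compared was left out.

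**Figure D2:**
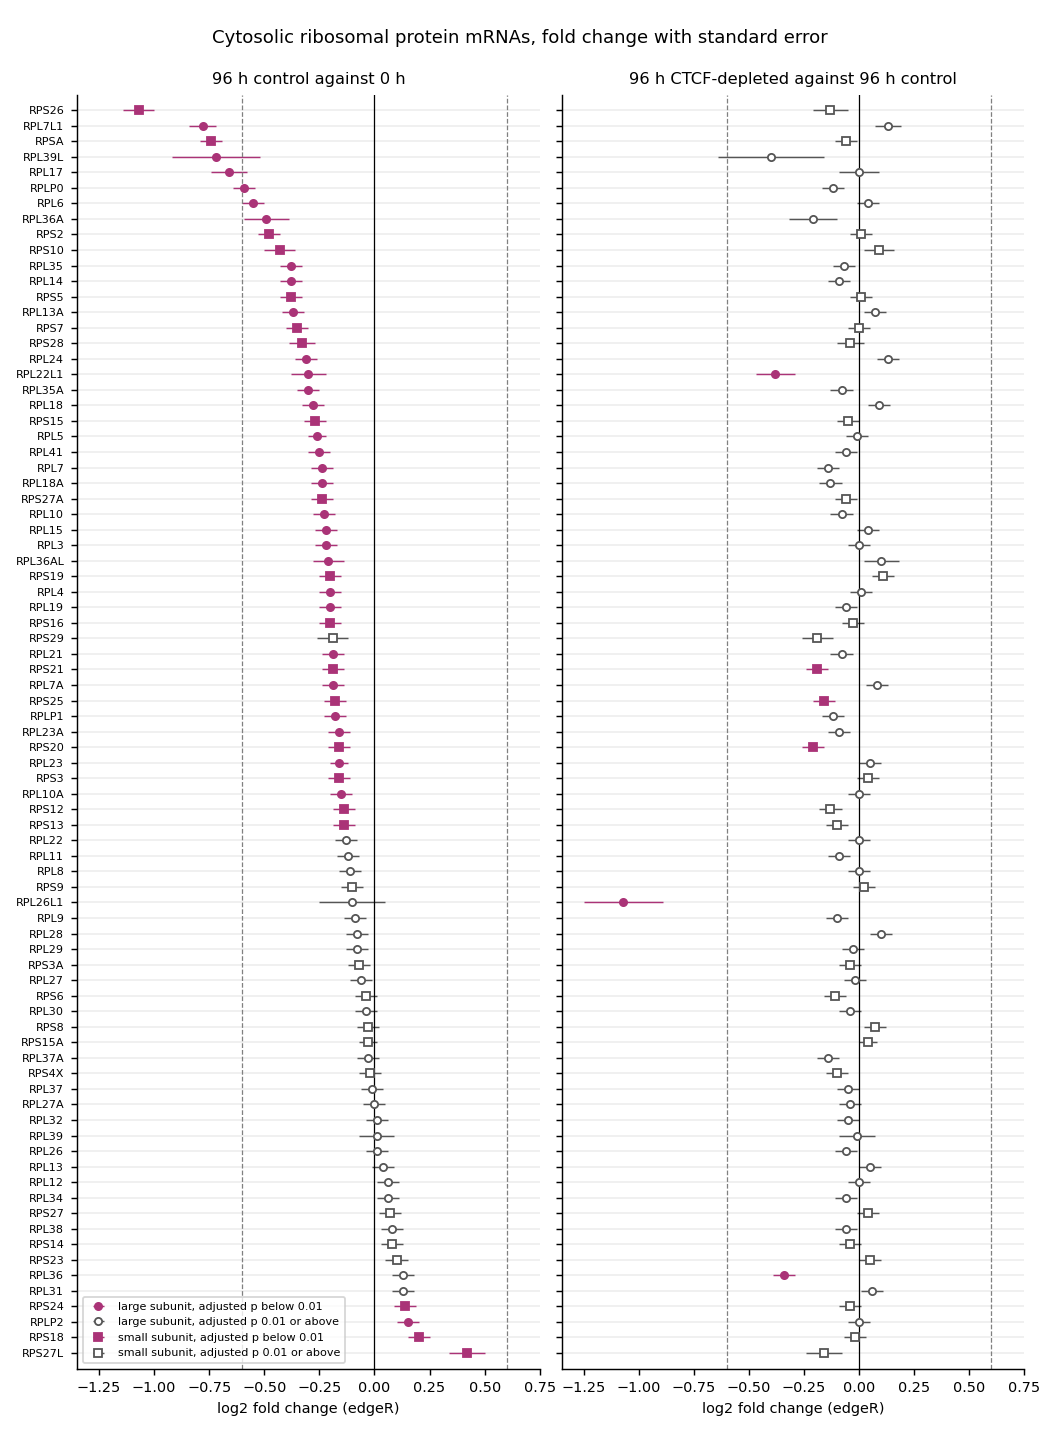
Log2 fold change (horizontal axis) with its standard error for 81 of the 83 tested members, ordered by the change from 0 h to the 96 h control; circles are large and squares small subunit members, filled where adjusted p was below 0.01, and dashed lines mark 0.6 in either direction. From 0 h to the 96 h control 5 members lie left of the dashed line, and after CTCF depletion only RPL26L1 does.

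RPS26 (ENSG00000197728.11, chr12:56041351-56044697), which sits where the mRNA leaves the small subunit and is mutated in Diamond-Blackfan anaemia, had the largest fall. Its level was 107.1 and 105.6 CPM at 0 h, 51.9 and 49.1 in the 96 h control and 46.1 and 46.2 after CTCF depletion. The 0 h libraries stood apart from all others. The log2 fold change from 0 h to the control was −1.07 ± 0.07 (SE, adjusted p = 7.64e-20), and that on depletion was −0.13 ± 0.08 (adjusted p = 0.199). Its 1 pseudogene row held 6 counts in all, 0.131% of the 4563 of RPS26.

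RPSA (ENSG00000168028.15, chr3:39406716-39426255), a small subunit protein also known as the laminin receptor, was at 620.8 and 617.4 CPM at 0 h, 376.9 and 362.6 in the control and 364.6 and 346.9 after depletion. The groups at 0 h and 96 h did not overlap, and the log2 fold change was −0.74 ± 0.05 (adjusted p = 6.83e-22). It hosts a snoRNA, SNORA6, whose row had 42 and 69 counts at 0 h and 31 to 36 at 96 h. Over all members, the 25 with an annotated snoRNA row inside had a median log2 fold change of −0.16 and the other 58 tested members −0.18.

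RPL7L1 (ENSG00000146223.16, chr6:42879616-42889925), a relative of RPL7, was at 188.2 and 196.7 CPM at 0 h and at 114.1 and 110.4 in the control. Its log2 fold change was −0.78 ± 0.06 (adjusted p = 7.33e-19). After depletion it was at 119.8 and 126.6 CPM, above both control libraries, and this difference did not pass (0.13 ± 0.06, adjusted p = 0.0614). RPL17 (ENSG00000265681.8, chr18:49488453-49492508), which lines the exit of the peptide tunnel, was at 56.7 and 53.6 CPM at 0 h, 35.9 and 33.9 in the control and 37.3 and 32.3 after depletion, a fall of −0.66 ± 0.08 on the log2 scale (adjusted p = 3.11e-10). The read-through row RPL17-C18orf32, with at most 6 counts in a library, and the SNORD58 rows overlap it. How reads shared by such rows were counted is not given in the sources used here. The few counts in that row therefore set no limit on the reads missing from RPL17, and this was not tested. Read-through rows on the same strand also overlap RPL36A (0 counts) and RPS10 (at most 1 count in a library). RPL39L (ENSG00000163923.10, chr3:187120948-187180908), a paralog known from testis, rested on 38 to 101 counts a library. It was at 9.18 and 7.58 CPM at 0 h and 4.85 and 5.19 in the control (log2 fold change −0.72 ± 0.20, adjusted p = 0.00132). This call was lost with DESeq2 (adjusted p = 0.0421) and when 0 h replicate 1 (log2 fold change −0.60), control replicate 1 (−0.71) or control replicate 2 (−0.77) was left out, and its adjusted p ran from 0.000217 to 0.0421 over the alternatives. Such ranges leave out glmTreat, which tests against the fold threshold instead of 0.

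Just short of the fold threshold lay RPLP0 (−0.59 ± 0.05, adjusted p = 1.31e-16) and RPL6 (−0.55 ± 0.05, adjusted p = 7.11e-16). RPL6, a large subunit protein, was at 741.6 and 723.8 CPM at 0 h, 524.1 and 478.6 in the control and 528.6 and 503.3 after depletion, and the 96 h libraries were all below those at 0 h. Both passed the fold threshold without 0 h replicate 2 (−0.66 for RPLP0 and −0.61 for RPL6) and without control replicate 1 (−0.67 and −0.65).

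The members higher by adjusted p alone included RPS27L (0.42), RPS18 (0.20), RPLP2 (0.15) and RPS24 (0.14, all log2 fold changes). RPS27L (ENSG00000185088.14, chr15:63125872-63158021), a paralog of RPS27 and a known p53 target, was at 41.9 and 45.1 CPM at 0 h and at 58.2 in each control library (0.42 ± 0.08, adjusted p = 5.49e-06). After depletion it was at 53.5 and 50.4 CPM, between the other groups. Its gene body overlaps LACTB on the opposite strand, whose counts were 63 and 103 at 0 h and 308 to 378 at 96 h; whether strand was used in counting is not given in the sources used here, and the part of LACTB reads in the value was not tested. RPS18, in the head of the small subunit, was at 754.6 and 722.6 CPM at 0 h, 866.0 and 830.6 in the control and 858.5 and 813.8 after depletion (0.20 ± 0.05, adjusted p = 0.000105). RPS24 was at 820.5 and 756.8 CPM at 0 h and 886.3 and 853.7 in the control. The 0 h and control libraries did not overlap for RPS18 or RPS24. Of these 4 genes, RPS27L alone kept an adjusted p below 0.01 under every alternative run, the highest being 0.00105, while for RPS18, RPLP2 and RPS24 the highest were 0.0782, 0.568 and 0.605.

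**Figure D3:**
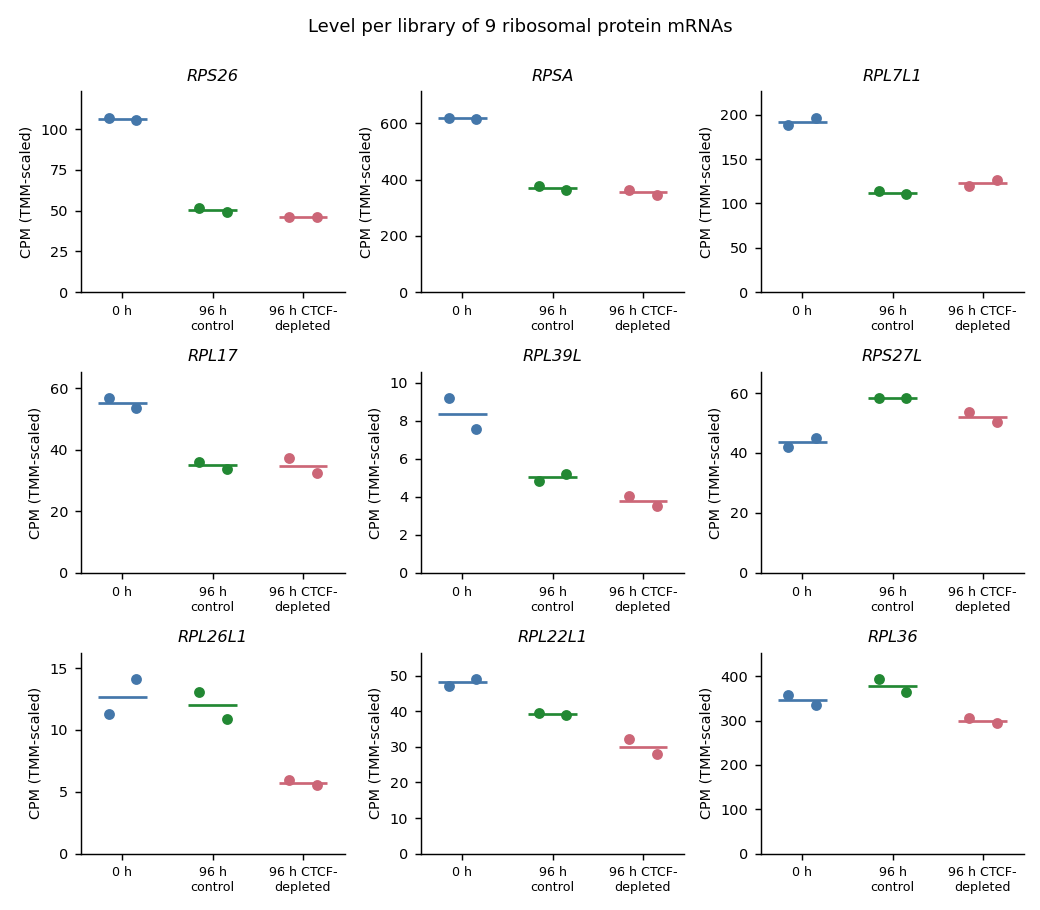
CPM scaled with TMM factors (vertical axis, starting at 0) in each library for 9 members; points are libraries and lines group means of 2 libraries. In RPS26, RPSA, RPL7L1, RPL17 and RPL39L both 0 h libraries lie above all 96 h libraries, and in RPL26L1, RPL22L1 and RPL36 both CTCF-depleted libraries lie below both control libraries.

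By adjusted p alone, the P stalk genes RPLP0 and RPLP1 were lower and RPLP2 was higher. Only RPLP0 kept its adjusted p below 0.01 under every alternative run, glmTreat aside. RPLP0 (ENSG00000089157.16, chr12:120196699-120201235), the base of the stalk, was at 1165 and 1113 CPM at 0 h, 781.5 and 733.2 in the control and 731.3 and 659.2 after depletion. RPLP1, at 756.7 and 654.2 against 631.5 and 614.7 CPM, was lower by adjusted p alone (−0.18 ± 0.05, adjusted p = 0.0012), a call lost with DESeq2 (adjusted p = 0.0753), without 0 h replicate 1 (0.114) and without control replicate 2 (0.05). RPLP2, the partner of RPLP1 in the stalk dimers, was at 534.8 and 513.1 against 608.9 and 551.2 CPM, with a log2 fold change of 0.15 ± 0.05 (adjusted p = 0.00433). The call of RPLP2 was lost with DESeq2 (adjusted p = 0.0294), upper-quartile scaling (0.544) and no filter on low counts (0.0173). It was also lost without 0 h replicate 2 (log2 fold change 0.08) or control replicate 1 (0.04). The differences between these 3 genes were not tested.

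RPL5 and RPL11 form, with 5S ribosomal RNA, a particle that binds MDM2 and thereby stabilizes p53, and RPL23 also binds MDM2. RPL5 was at 1067 and 1037 CPM at 0 h and 875.6 and 880.4 in the control (−0.26 ± 0.04, adjusted p = 7.74e-07). RPL23 was at 932.2 and 896.1 against 810.1 and 822.1 (−0.16 ± 0.04, adjusted p = 0.00103), and RPL11, at 838.6 and 788.4 against 749.3 and 743.5, did not pass (−0.12 ± 0.05, adjusted p = 0.0125). RPS6, the substrate of the S6 kinases downstream of mTORC1, did not pass either, at 1483 and 1473 CPM at 0 h and 1463 and 1403 in the control (−0.04 ± 0.05, adjusted p = 0.382).

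Of the 9 genes mutated in Diamond-Blackfan anaemia that were listed, RPS26 fell past both thresholds (11.1%, against 22.9% of all genes tested). By adjusted p alone 7 including RPS26 were lower (77.8%, against 56.6% of the members and 33.7% of all genes). RPS24 was higher by adjusted p alone (against 34.5% of all genes), and RPL11 did not pass. The log2 fold changes included −0.43 for RPS10, −0.35 for RPS7, −0.30 for RPL35A, −0.26 for RPL5 and −0.20 for RPS19, whose call was lost without 0 h replicate 1 (adjusted p = 0.023) or control replicate 2 (0.0349). RPS14, whose loss is known from 5q minus syndrome, was at 485.9 and 460.4 CPM at 0 h and 507.8 and 492.6 in the control, which did not pass (0.08 ± 0.05, adjusted p = 0.102). Among proteins of the exit tunnel, RPL4 was lower by adjusted p alone (−0.20 ± 0.05, adjusted p = 0.000107) beside RPL17, and RPL39 did not pass (0.01). RPL22, another large subunit protein, did not pass either (−0.13). Among proteins around the mRNA entry and decoding sites, RPS2, one of the most abundant members, was at 1972 and 1887 CPM at 0 h and 1392 and 1376 in the control (−0.48 ± 0.05, adjusted p = 7.55e-14). RPS3 was lower by adjusted p alone (−0.16 ± 0.05, adjusted p = 0.00293), a call lost without 0 h replicate 1 (adjusted p = 0.0392) or control replicate 2 (0.0919), and RPS23 was not called (0.10 ± 0.05, adjusted p = 0.0566).

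The balance between paralog and parent was given as the share of the paralog in the counts of the pair, with 95% Wilson intervals in the plot of paralog shares. These shares are not corrected for gene length and are compared only within a pair. RPL39L made up 9.55% and 9.41% of the counts of RPL39 and RPL39L at 0 h and 5.42% and 6.41% in the control, where RPL39 itself was at 87.0 and 72.9 against 84.7 and 75.7 CPM. RPL7L1 made up 15.2% and 16.1% with RPL7 at 0 h and 11.4% and 11.3% in the control. RPS27L moved the other way, from 8.04% and 8.79% to 10.3% and 10.8%, while RPS27 was at 478.7 and 467.6 against 508.4 and 481.8 CPM. In these 3 pairs the shares at 0 h and in the control did not overlap. The same held for RPL36AL and RPL22L1, but not for RPL26L1. With 2 libraries a group, such separations were not tested. RPL36AL, which outweighed RPL36A in counts, made up 73.8% and 69.4% at 0 h and 76.3% and 74.1% in the control. RPL36A was lower by adjusted p alone (28.8 and 32.4 against 20.6 and 23.3 CPM, −0.49 ± 0.10, adjusted p = 3.95e-05) and so was RPL36AL (81.0 and 73.4 against 66.3 and 66.9 CPM, −0.21 ± 0.07, adjusted p = 0.00972). The call of RPL36AL was lost with DESeq2 (adjusted p = 0.051), with at least 10 counts required in every library (0.0135), without 0 h replicate 1 (0.0869) and without either control library (0.031 and 0.0551). RPL3L and RPL10L had no counts. In 0 h replicate 2, with 10200 counts of RPL10, this allows RPL10L a share of up to 0.0376% by the Wilson interval. How reads that fit parent, paralog and pseudogene alike were counted is not given in the sources used here, and their part in these shares was not tested. The pseudogene rows in the table held at most 3.17% of their parent's counts, for RPL32 and RPL23A.

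**Figure D4:**
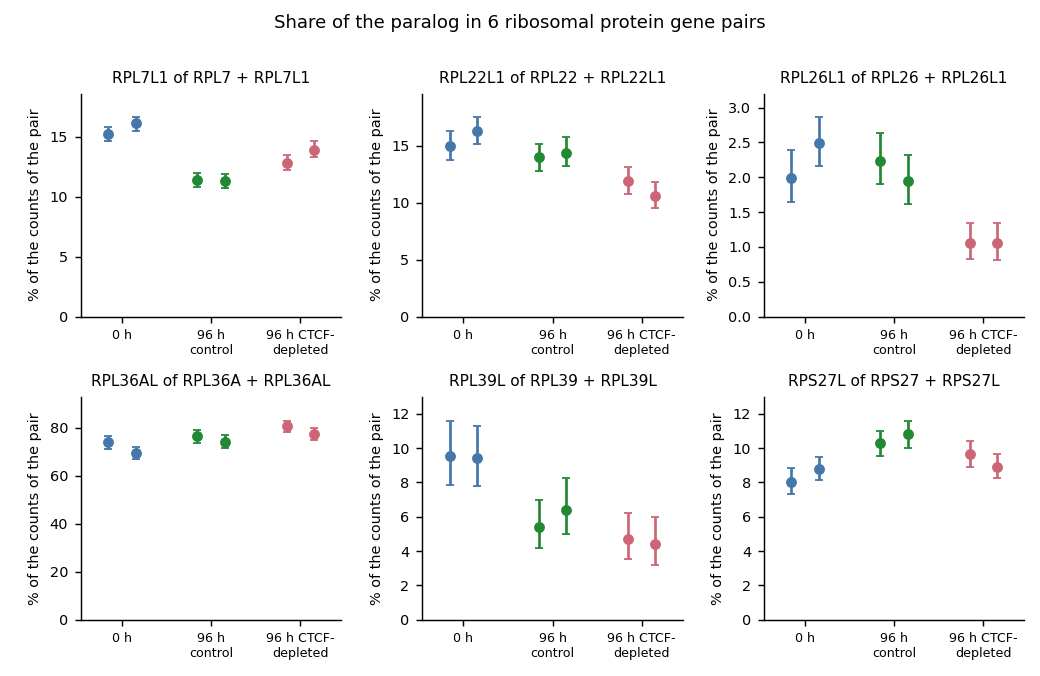
Share of the paralog in the summed counts of paralog and parent (vertical axis, percent) in each library for 6 pairs, with 95% Wilson intervals that cover counting error only. RPL7L1, RPL22L1 and RPL39L fall and RPS27L and RPL36AL rise from 0 h to the 96 h control. RPL26L1 is near 1.06% after CTCF depletion and between 1.94% and 2.49% in the other groups.

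CTCF depletion was compared next, as the 96 h CTCF-depleted libraries against the 96 h control. The members barely moved, and RPL26L1 was the exception. It was the 1 member past both thresholds and it fell, which is 1.20% of the 83 against 7.03% of all genes tested, and 0 members rose, against 5.41% of all genes. By adjusted p alone 6 members were lower (7.23%, against 17.4% of all genes) and 0 higher (against 12%). With upper-quartile scaling 5 were lower and 2 higher, with DESeq2 0 were higher, and with edgeR at an unadjusted p below 0.05 there were 19 lower and 3 higher. At that unadjusted cut the share of all genes was not computed. It is at least 17.4% lower and 12% higher, the shares by adjusted p alone. Among the members with a log2 fold change above 0, those with the smallest adjusted p were RPL24 (0.13), RPS19 (0.11), RPL7L1 (0.13), RPL28 (0.10) and RPL18 (0.09), with adjusted p of 0.0218, 0.0595, 0.0614, 0.114 and 0.176. The median log2 fold change of the members was −0.04, or 97.0% of the control level, and that of all genes was −0.03. The members' SD was 0.15, against 0.68 for all genes, again not matched in level.

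RPL26L1 (ENSG00000037241.7, chr5:172958729-172969771) is a close relative of RPL26, a large subunit protein near the tunnel exit. It had 148 and 118 counts in the control and 64 and 60 after depletion, or 13.1 and 10.9 against 5.93 and 5.53 CPM. At 0 h it was at 11.3 and 14.1 CPM, so that both depleted libraries lay below the other 4. The log2 fold change was −1.07 ± 0.18 (adjusted p = 2.09e-06), with a range of −1.16 to −0.90 when libraries were left out and a highest adjusted p over the alternatives of 0.00244. From 0 h to the control RPL26L1 did not pass (−0.10 ± 0.15, adjusted p = 0.572). RPL26 was at 568.8 and 552.9 CPM in the control and 554.6 and 520.8 after depletion (−0.06 ± 0.05, adjusted p = 0.31), and the share of RPL26L1 in the pair went from 2.24% and 1.94% to 1.06% and 1.05%. No other protein-coding or snoRNA row overlaps RPL26L1.

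RPL36 (ENSG00000130255.13, chr19:5674947-5691875), a large subunit protein, was lower by adjusted p alone. It was at 393.3 and 364.8 CPM in the control and 305.4 and 294.2 after depletion, and at 357.4 and 335.5 at 0 h, so the depleted libraries were again below the other 4 (−0.34 ± 0.05, adjusted p = 3.76e-08). This held under each alternative run, with a highest adjusted p of 0.00204. Its gene body overlaps LONP1 on the opposite strand, which had 975 and 827 counts in the control and 789 and 717 after depletion, and HSD11B1L on the same strand, with 2 to 24 counts. RPL22L1 (ENSG00000163584.18, chr3:170864875-170870208), the paralog that can replace RPL22, was at 39.5 and 38.9 CPM in the control and 32.1 and 28.0 after depletion (−0.38 ± 0.09, adjusted p = 0.000279). It had also been lower in the control than at 0 h, where it was at 47.2 and 49.0 CPM (−0.30 ± 0.08, adjusted p = 0.000894), a call lost with DESeq2 (adjusted p = 0.0335) and without control replicate 2 (0.0174). RPL22 itself was at 243.2 and 230.5 CPM in the control and 238.2 and 235.1 after depletion, and the share of RPL22L1 in the pair was 15.0% and 16.3% at 0 h, 14.0% and 14.4% in the control and 11.9% and 10.6% after depletion.

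The other members lower by adjusted p alone on depletion belong to the small subunit. RPS20 was at 840.7 and 800.7 CPM in the control and 743.1 and 678.6 after depletion (−0.21 ± 0.05, adjusted p = 0.000684). RPS21 was at 237.5 and 221.3 against 206.9 and 195.8 CPM (−0.19 ± 0.05, adjusted p = 0.00203), and RPS25, known for its part in translation from internal ribosome entry sites, at 382.6 and 362.5 against 344.6 and 322.2 CPM (−0.16 ± 0.05, adjusted p = 0.00921). The depleted libraries lay below both control libraries in each. With DESeq2 the count lower by adjusted p alone was 2, and RPL22L1, RPS20, RPS21 and RPS25 then had adjusted p of 0.0288, 0.168, 0.0402 and 0.102. RPS21 and RPS25 also lost their calls without any 1 of the 4 libraries compared (log2 fold changes of −0.21 to −0.10 and −0.17 to −0.08). RPS20 and RPL22L1 lost theirs without control replicate 1, control replicate 2 or CTCF-depleted replicate 2. With 1 library left out, their log2 fold changes ran from −0.24 to −0.11 and from −0.45 to −0.26. Without any 1 of the 4 libraries, fewer members were lower by adjusted p alone.

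Set against 0 h, the CTCF-depleted libraries gave 9 members lower past both thresholds (10.8%, against 25.2% of all genes) and 0 higher (against 27.2%). By adjusted p alone 49 were lower (59.0%, against 35.0%) and 6 higher (7.23%, against 35.9%). This comparison shares its libraries with the other two, so its values are only set beside theirs. The log2 fold changes from 0 h were, without and with IAA, −1.07 and −1.20 for RPS26, −0.10 and −1.17 for RPL26L1, −0.72 and −1.13 for RPL39L, −0.74 and −0.80 for RPSA and −0.59 and −0.71 for RPLP0. They were −0.49 and −0.70 for RPL36A, −0.30 and −0.68 for RPL22L1, −0.66 in each for RPL17 and −0.78 and −0.65 for RPL7L1. The median over the members was −0.20, and over all genes 0.02.

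Genes that build ribosomes were lower in iMacs to a greater extent than the ribosomal protein genes themselves by their medians, a difference that was not tested. Among 73 ribosome assembly factors, 51 fell and 1 rose past both thresholds from 0 h to the control (69.9% lower, against 22.9% of all genes), with a median log2 fold change of −0.73. NOP56, a core protein of box C/D snoRNPs, went from 278.9 and 282.5 to 117.2 and 119.7 CPM (−1.24 ± 0.05, adjusted p = 1.27e-29), and the nucleolar chaperone NPM1 from 1299 and 1285 to 623.9 and 613.6 CPM (−1.06 ± 0.05, adjusted p = 5.79e-29). RRP12, an export factor of pre-ribosomes, was the 1 that rose, from 51.6 and 46.1 to 119.6 and 128.7 CPM (1.35 ± 0.07, adjusted p = 3.29e-25). Of 16 genes of RNA polymerase I and its factors, 7 fell (43.8%, against 22.9% of all genes) and 1 rose (against 25.4%), with a median of −0.56. TTF1, which terminates its transcription, fell by 1.86 on the log2 scale and TCOF1, a nucleolar factor, by 1.10, while TAF1B rose by 0.63.

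The mitochondrial ribosomal proteins, which are encoded in the nucleus and build a separate ribosome, had a median of −0.56, with 35 of 75 lower (46.7%, against 22.9% of all genes) and 2 higher (against 25.4%) past both thresholds. MRPS15 fell from 54.3 and 54.2 to 19.5 and 17.4 CPM and MRPS9 from 53.5 and 52.4 to 20.1 and 22.6, while MRPL33 rose from 15.6 and 11.3 to 72.0 and 74.4 CPM. MRPS6 rose by 0.91 on the log2 scale. Of the 12 snoRNA host RNAs that begin with TOP tracts, 5 fell and 0 rose (41.7% lower, against 22.9% of all genes, median −0.48), among them SNHG16 (−1.06) and SNHG3 (−0.65). Of 12 elongation factor genes 3 fell and 0 rose (25.0% lower, against 22.9% of all genes, median −0.38), with EIF5A from 538.1 and 510.2 to 343.3 and 346.5 CPM and EEF1A2 from 12.6 and 9.75 to 0.353 and 0.0926 CPM. Of 36 initiation factor genes 6 fell and 0 rose (16.7% lower, against 22.9% of all genes, median −0.30). Among the 6 were EIF2S1 (−1.09), whose phosphorylation starts the integrated stress response, and EIF4G2 (−0.68).

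Among 26 regulators of mTORC1 and of TOP mRNAs, 5 fell (19.2%, against 22.9% of all genes) and 6 rose (against 25.4%), with a median of 0.10. LARP1 fell from 711.1 and 700.3 to 416.0 and 429.0 CPM (−0.74 ± 0.04, adjusted p = 5.29e-22) and EIF4EBP1, an inhibitor of cap-dependent translation, from 105.6 and 99.6 to 55.7 and 52.5 CPM (−0.92 ± 0.07, adjusted p = 6.33e-17). DDIT4, an inhibitor of mTORC1, rose from 22.8 and 18.2 to 331.3 and 327.6 CPM (4.03 ± 0.07, adjusted p = 5.18e-48), and SESN3 from 8.15 and 8.33 to 104.8 and 105.4 CPM (3.67 ± 0.09, adjusted p = 9.16e-40).

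On CTCF depletion few genes of these lists passed both thresholds, where 7.03% of all genes tested were lower and 5.41% higher. The assembly factors had 0 lower and 1 higher, RCL1, at 39.0 and 35.9 CPM in the control and 68.8 and 63.3 after depletion (0.82 ± 0.08, adjusted p = 1.39e-12). The mitochondrial list had 1 lower of 75, MRPS2, from 35.0 and 35.5 to 16.4 and 14.2 CPM (−1.20 ± 0.10, adjusted p = 2.02e-15). DDIT4 fell from 331.3 and 327.6 to 111.7 and 120.3 CPM (−1.51 ± 0.06, adjusted p = 1.17e-29). EEF2K, the kinase that inhibits the elongation factor EEF2, rose from 48.1 and 43.1 to 75.6 and 95.4 CPM (0.91 ± 0.08, adjusted p = 1.15e-13), near its level of 89.5 and 89.3 CPM at 0 h. SNHG7 fell from 54.2 and 48.8 to 32.1 and 31.0 CPM (−0.71 ± 0.09, adjusted p = 5.29e-10). The initiation factors and the RNA polymerase I list each had 0 genes past both thresholds, with 4 of 36 (11.1%) and 2 of 16 (12.5%) lower by adjusted p alone, against 17.4% of all genes, and 2 and 3 higher, against 12%.

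**Figure D5:**
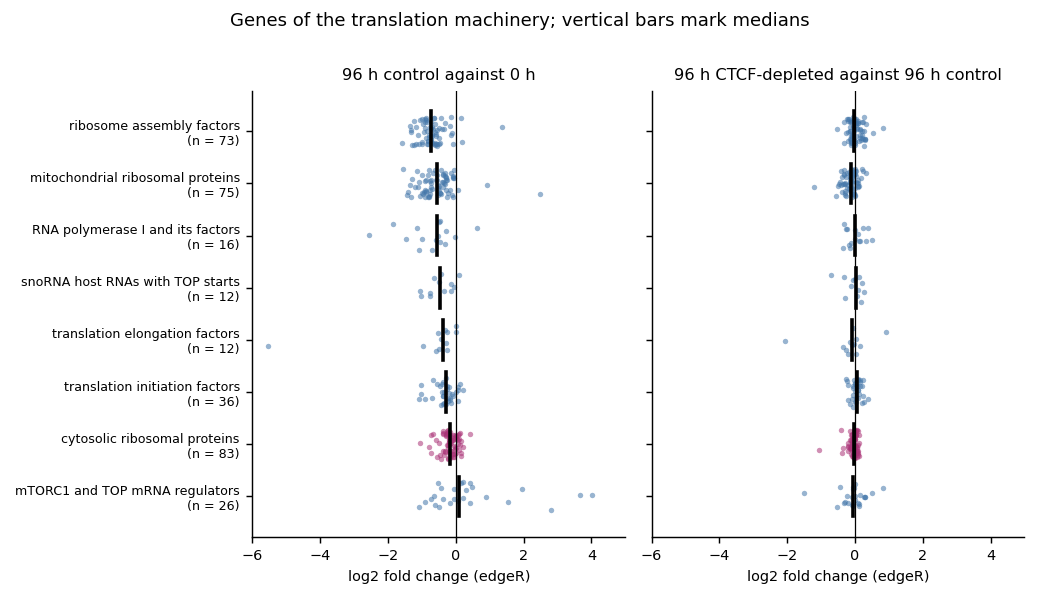
Log2 fold change (horizontal axis) of each tested gene in the cytosolic ribosomal protein set and in 7 lists of the translation machinery and its regulators, with points spread vertically for legibility and vertical bars at the medians. From 0 h to the 96 h control the medians run from −0.73 for assembly factors to 0.10 for mTORC1 and TOP mRNA regulators, with the cytosolic ribosomal proteins at −0.16, and on CTCF depletion all medians lie near 0.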

How the data were processed

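Total RNA from 6 libraries was sheared, depleted of ribosomal RNA and sequenced as stranded paired-end libraries. The authors aligned reads to hg38 with STAR 2.6.1d and deposited raw read counts per gene made with featureCounts 2.0.6 over exons. The annotation release, the strand setting and the handling of reads that fit several places are not given in the sources used here. The last matters for ribosomal proteins, which have many pseudogenes.

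From the counts, edgeR 4.0.16 (R 4.3.3) was run with filterByExpr, TMM scaling and the quasi-likelihood test on all 6 libraries with group as the only term, and p-values were adjusted by Benjamini-Hochberg over all 14758 genes tested. CPM values are scaled with TMM factors, and log2 fold changes are those of the quasi-likelihood fit. A prior count of 2 was used for the log-scaled CPM behind the correlations of replicate differences between groups. Thresholds were adjusted p below 0.01 and absolute log2 fold change above 0.6, as in the study's methods, or the former alone. All libraries share 1 estimate of the spread, which for each gene was drawn strongly towards that of all genes (51.7 prior degrees of freedom). The p-values measure the spread between replicates of 1 subclone, taken largely over all genes and not from the single gene alone. Replicates differed by more than sampling noise (chi-square per degree of freedom 2.76 at 0 h, 1.92 in the control and 1.73 after depletion), so none was counted as a repeat. Gene positions and lengths are from GENCODE 44 and sequences from RefSeq (GRCh38.p14).

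The members and lists were chosen with earlier results of these data known. Named genes are the member groups and paralog pairs listed, and the members with the smallest adjusted p or past both thresholds. The highest and lowest levels per length and up to 2 genes per list and direction were also named. The fits were tested on simulated data for the CTCF-depleted against control comparison, where edgeR recovered 199 of 200 changed genes among 14758 and DESeq2 1.42.0 recovered 188, each with 0 false calls. The planted changes all lay well beyond the fold threshold, in well-counted genes, and every gene was given the same spread between replicates. Smaller changes, such as those of most members, and shifts shared by many genes between replicates were not simulated. Alternatives were DESeq2, other scalings and filters, a replicate term, other thresholds and leaving out libraries. Shares over protein-coding rows were added after the data were seen. Some genes are not reported here by name.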

Additional observations from a re-analysis of the deposited data

How the results depend on the processing

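Of the member log2 fold changes recomputed, some near 0 changed sign, none of which had passed the test. From 0 h to the control these were RPL39 with DESeq2 (−0.00), upper-quartile scaling (−0.10) and no filter (−0.02), and RPS14 and RPS23 with upper-quartile scaling (−0.04 and −0.02). With 1 library left out, RPL39 ran from −0.16 to 0.13, RPS14 from −0.00 to 0.11, RPS23 from −0.00 to 0.14, RPL26L1 from −0.27 to 0.04 and, on depletion, RPL26 from −0.07 to 0.01. Past both thresholds, the members lower from 0 h to the 96 h control were 8 with upper-quartile scaling, 3 with glmTreat and 1 at a log2 fold change above 1. The single member lower on CTCF depletion became 0 with glmTreat, and those lower from 0 h to CTCF-depleted became 5 with glmTreat and 3 at a log2 fold change above 1. By adjusted p alone, members higher from 0 h to the control were 3 with DESeq2, 1 with upper-quartile scaling and 3 without a filter. On depletion 2 were lower with DESeq2. Members higher on depletion were 2 with upper-quartile scaling, 3 without a filter, 1 with at least 10 counts required in every library and 5 with only the 4 libraries compared. From 0 h to CTCF-depleted 1 was higher with upper-quartile scaling. That scaling moved the median of all genes from 0 h to the control to −0.10 and that of the members to −0.28, and from 0 h to CTCF-depleted to −0.06 and −0.28. Leaving out 1 library at a time gave 4 to 7 members lower past both thresholds from 0 h to the control, 1 on depletion and 7 to 9 from 0 h to CTCF-depleted. By adjusted p alone it gave 28 to 60 lower and 1 to 8 higher, then 2 to 4 lower and 0 to 1 higher, then 39 to 62 lower and 2 to 9 higher. The medians of the members ran from −0.26 to −0.11, from −0.04 to 0.01 and from −0.26 to −0.14. The share of counts in the members over protein-coding rows was 6.11%, 5.76%, 5.06%, 4.87%, 5.07% and 4.98% in the 6 libraries. The median level was 1050 CPM per kilobase of coding sequence, with a ratio of 9.32 between the 90th and 10th percentiles, against merged exons in the main values. Over all genes tested, the differences between replicates 1 and 2 were close to uncorrelated between groups (−0.0194, 0.0109 and −0.0294). These values do not speak for the members alone, of which 78, 69 and 70 of 83 were higher in replicate 1 of the 0 h, control and CTCF-depleted groups. With a replicate block 5, 1 and 9 members were lower past both thresholds and 49, 8 and 52 by adjusted p alone. For single members, 9 values of RPLP0, RPL6 and RPL36A crossed the fold threshold and 4 of RPL39L lost their call. Causes were not tested. With 2 libraries a group, shifts of the size of the replicate difference at 0 h cannot be told from it.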

Other observations

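The 14 genes of the pathway from RPL5 and RPL11 through MDM2 to p53 targets had a median log2 fold change of 0.86 from 0 h to the 96 h control, with 10 higher (against 25.4% of all genes tested) and 0 lower (against 22.9%) past both thresholds. FAS, a death receptor, rose from 2.27 and 2.40 to 64.8 and 61.0 CPM and SESN1, an inhibitor of mTORC1, from 17.1 and 15.5 to 117.6 and 111.4 CPM. On CTCF depletion 3 fell past both thresholds (21.4%, against 7.03% of all genes tested) and 0 rose (against 5.41%). CDKN1A, the cell cycle inhibitor p21, went from 314.9 and 325.9 CPM in the control to 186.9 and 192.4 (−0.76 ± 0.05, SE, adjusted p = 6.69e-19), and BBC3, which promotes apoptosis, from 30.8 and 26.8 to 17.2 and 20.0 CPM (−0.63 ± 0.12, adjusted p = 1.36e-05). RPS27L, the ribosomal protein paralog of the same p53 programme, did not pass on depletion (−0.16 ± 0.08, adjusted p = 0.0932).

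The table also held 30 rows of ribosomal protein pseudogenes, of which 15 passed the filter. Together they had 460 and 710 counts at 0 h, 884 and 912 in the 96 h control and 729 and 722 after depletion. They took a larger share of counts at 96 h (0.00663% to 0.00809%) than at 0 h (0.00496% and 0.00558%). The sum rests on few rows, as the 1 pseudogene row of RPL32 held 1373 counts over all libraries. From 0 h to the control, 4 of the 15 were higher (against 25.4% of all genes tested) and 1 lower (6.67%, against 22.9%) past both thresholds.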
